A study of Homo sapiens with 2 samples.

Results

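The genes described here encode the folding and degradation machinery of the endoplasmic reticulum (ER): chaperones, enzymes of disulfide formation, components of ER-associated degradation, part of the translocation and export apparatus, and the regulators of the unfolded protein response. They were chosen by name from textbook roles, 39 genes in all, and 38 of them had a probe set of their own among the 18404 genes that could be named on the array. PDIA3 was the exception, because its probe sets are annotated to a pseudogene as well. The signals come from 2 Affymetrix Human Gene 1.0 ST arrays of wild-type HL-60, an established human promyelocytic leukaemia line, labelled replicates 2 and 1 and grown in DMEM with 10% serum. Both arrays belong to 1 group of 1 cell line, so the study holds no treated, mutant or other cells to compare them with, and nothing in the labels tells if 2 cultures or 1 were used, which means that the spread may be technical. Its stated subject is how DNMT1 binding to RNA relates to DNA methylation and gene expression.

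Secreted and membrane proteins enter the ER through the Sec61 channel, fold there with the help of BiP, GRP94, calnexin, calreticulin and the protein disulfide isomerases, and are sent back to the cytosol for degradation when folding fails. When unfolded proteins accumulate, the sensors IRE1, PERK and ATF6 raise the supply of these proteins through the transcription factors XBP1, ATF4 and ATF6. Promyelocytes synthesise large amounts of granule proteins such as myeloperoxidase, which matures in the ER with calreticulin and calnexin.

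A short promoter sequence that these genes are known to share is the ER stress response element (ERSE), bound by ATF6 together with the CCAAT factor NF-Y. In its exact form it reads CCAAT, then 9 bases of any kind, then CCACG, on either strand. RefSeq promoter windows (GRCh38.p14, 250 bases before to 50 bases after the transcription start) were found for 35 of the 39 genes. The exact ERSE was in those of 8 of the 35 (22.9%), against 25 of all 27305 genes with a window (0.0916%). The 9 matches are shown because the main chaperone genes described below are among the 8. The list was chosen for roles in a response known to act through this element, so the motif is not independent of that choice. Capitals mark the CCAAT and CCACG letters, and each match is written 5′ to 3′ in the CCAAT orientation.
HSPA5 (chr9:125241391-125241409, minus strand): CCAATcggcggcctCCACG
HSP90B1, far match (chr12:103930216-103930234, plus strand): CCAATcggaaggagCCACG
HSP90B1, near match (chr12:103930321-103930339, minus strand): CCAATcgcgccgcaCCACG
CALR (chr19:12938384-12938402, minus strand): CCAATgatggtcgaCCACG
CANX (chr5:179698778-179698796, plus strand): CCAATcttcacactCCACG
PDIA6 (chr2:10812853-10812871, minus strand): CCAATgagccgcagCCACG
CRELD2 (chr22:49918554-49918572, minus strand): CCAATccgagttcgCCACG
XBP1 (chr22:28800603-28800621, minus strand): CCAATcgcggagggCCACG
ERO1B (chr1:236282183-236282201, plus strand): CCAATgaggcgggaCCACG

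The matches lay at different distances from the start, between 52 and 34 bases before it in XBP1 and between 243 and 225 bases before it in ERO1B. Distances depend on which listed start is used. The CANX match lay from -151 to -133 relative to the earliest listed start and from -9 to 10 relative to another. In HSPA5 the match ended 48 bases before the start. HSP90B1, which encodes GRP94, held a pair of matches on opposite strands, as this stretch from position -214 to -51 relative to its start shows, with the same letters in capitals.
HSP90B1 (chr12:103930196-103930359, plus strand): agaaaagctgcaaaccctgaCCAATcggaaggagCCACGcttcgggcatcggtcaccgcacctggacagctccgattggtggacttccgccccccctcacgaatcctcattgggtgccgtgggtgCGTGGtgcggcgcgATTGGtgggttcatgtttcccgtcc

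The related ERSE-II motif, ATTGG, any base, then CCACG on either strand, was in 3 of the 35 genes (8.57%) and in 19 of the 27305 (0.0696%). Its members were HERPUD1, SDF2L1 and HYOU1, and HYOU1 held it at 2 positions. HERPUD1 was also the only gene of the list with the ATF4 element TTGCATCA on either strand, found in 1.08% of all genes with a window. Its stretch from position -196 to -87 relative to the start is shown because it carries both motifs, in capitals.
HERPUD1 (chr16:56931946-56932055, plus strand): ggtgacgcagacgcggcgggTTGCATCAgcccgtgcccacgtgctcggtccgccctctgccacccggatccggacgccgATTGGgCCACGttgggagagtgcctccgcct
SDF2L1, ERSE-II (chr22:21642114-21642124, minus strand): ATTGGtCCACG
HYOU1, far ERSE-II (chr11:119057380-119057390, plus strand): ATTGGaCCACG
HYOU1, near ERSE-II (chr11:119057274-119057284, plus strand): ATTGGaCCACG

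ERSE or ERSE-II was thus present in 11 of the 35 genes (31.4%) and in 44 of the 27305 (0.161%). The core of the unfolded protein response element known from XBP1, TGACGTGG on either strand, was in DNAJC10 and HYOU1, and in 0.927% of all genes with a window. In HYOU1 it overlapped the far ERSE-II. The plain pentamer CCAAT, on either strand, was in 27 of the 35 (77.1%) and in 39.7% of all genes with a window. These are matches of letters, and forms that differ from the exact letters were not counted.

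**Figure D1:**
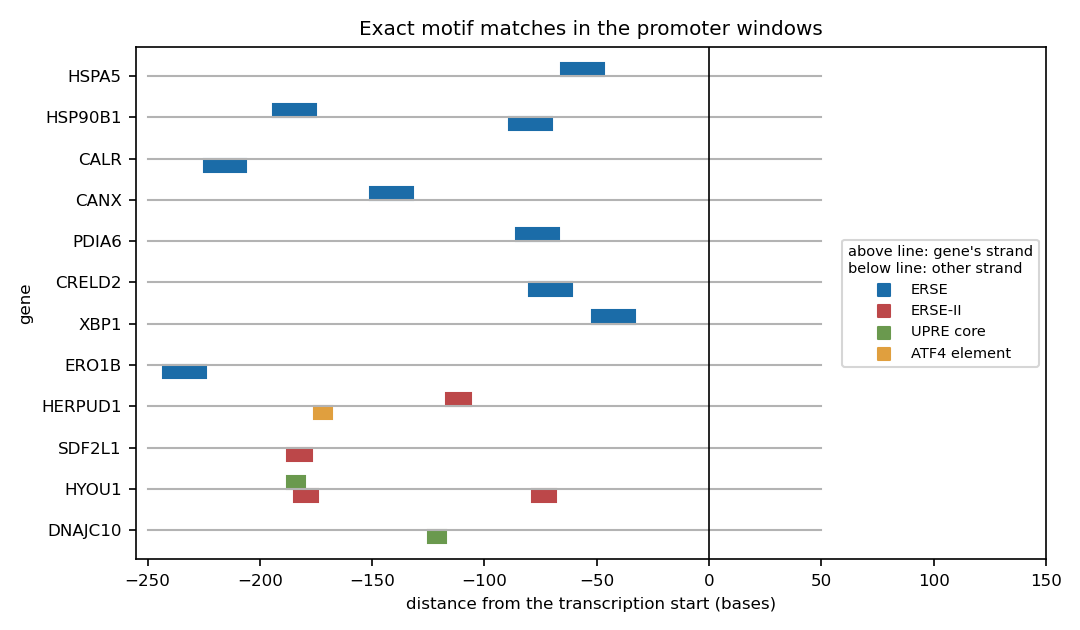
Exact motif matches in the promoter windows of the 12 genes that held any of ERSE, ERSE-II, the XBP1 element core or the ATF4 element. The x axis gives the distance in bases from the transcription start, boxes above each line lie on the gene's strand and boxes below it on the other, and a match that several windows of a gene share is drawn once. ERSE boxes appear in 8 genes, with a pair in HSP90B1, and HERPUD1 carries an ATF4 element and an ERSE-II.

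The promoters were also rich in CpG. The median ratio of observed to expected CpG was 0.91 over the 35 genes, against 0.84 over the 8274 named genes with a window that were above background on the arrays and 0.58 over all 27305. A ratio above 0.6 was found for 33 of the 35 (94.3%), against 82.6% and 48.9% of those same sets. The exceptions were SEC61A1 (0.27) and PDIA6 (0.59), both by the earliest listed of several windows. Methylation itself was not measured on these arrays.

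Signals are RMA values on the log2 scale. Background was taken from 340 olfactory receptor genes, with a 95th percentile of 2.87 for replicate 2 and of 2.98 for replicate 1. A more demanding threshold came from 116 keratin-associated protein, bitter taste receptor and beta-defensin genes, with 95th percentiles of 5.22 on replicate 2 and 5.40 on replicate 1. Of the 38 ER genes, 37 lay above the olfactory value on each array, as did 55.8% of all named genes. The stricter threshold was exceeded on both arrays by 23 of the 38 and by 17.1% of all named genes. The median signal was 5.95 over the ER genes and 3.33 over all named genes. Probe sets differ in how strongly they bind, so signals of different genes are not relative amounts of RNA.

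Markers of promyelocytes, the cell type of the label, were above background, though not all by much. All 9 measured ones were above the olfactory threshold on both arrays, as were 55.8% of all named genes. Above the stricter one on both arrays were 5 of the 9, against 17.1% of all named genes. AZU1 (3.19 on replicate 2, 3.01 on replicate 1), ELANE, CEBPE and MS4A3 were not. CEBPE and MS4A3 are named for that reason, after their values were seen. The highest signals were those of the transcription factor gene MYB (9.41 ± 0.17, mean ± SD, n = 2) and SRGN (9.13 ± 0.17), which encodes the granule proteoglycan serglycin. Plasma cells, which are known for a very large ER, served as a contrast. Of 10 plasma cell markers 2 passed, SDC1 (4.34 ± 0.25) and MZB1 (3.81 ± 0.34), and 0 passed the stricter threshold. Mean signals of this list ranged from 1.56 to 4.34, and the lowest was that of the joining chain gene JCHAIN, a defining marker named for that reason.

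**Figure D2:**
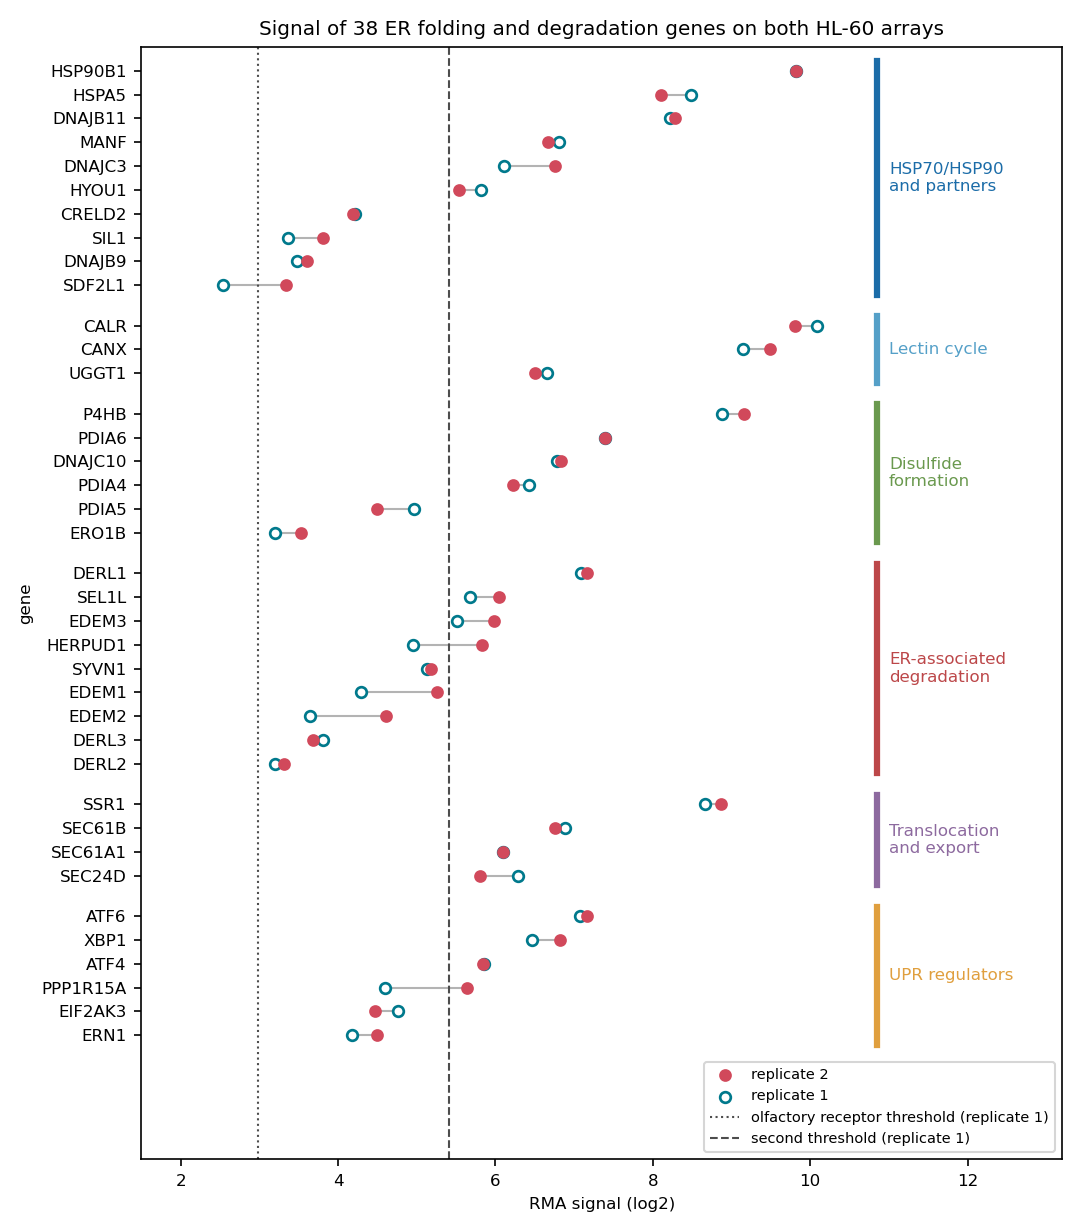
RMA signal (log2, x axis) of the 38 measured genes on replicate 2 (filled) and replicate 1 (open), grouped by role. Vertical lines mark the olfactory threshold and the stricter threshold of replicate 1, and SDF2L1 on replicate 1 is the only point left of the first line.

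The main chaperones of the ER lumen were well above background. HSPA5, which encodes BiP, the ER member of the HSP70 family and the best known target of the unfolded protein response, read 8.10 on replicate 2 and 8.48 on replicate 1. HSP90B1, the GRP94 gene, read 9.82 on both arrays, to 2 decimals. DNAJB11, a cochaperone that hands substrates to BiP, read 8.28 on replicate 2 and 8.21 on replicate 1. These 3 exceeded the stricter threshold on both arrays, and HSPA5 differed most between them, at -0.38. HYOU1, a large HSP70-like protein that exchanges nucleotide on BiP, followed with 5.53 on replicate 2 and 5.81 on replicate 1. MANF, a secreted ER stress protein that binds BiP, read 6.67 on replicate 2 and 6.81 on replicate 1.

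A further 3 genes of this role lay between the thresholds. SIL1, the other nucleotide exchange factor, read 3.81 on replicate 2 and 3.36 on replicate 1. DNAJB9, a J protein that is known to restrain IRE1 through BiP, read 3.60 on replicate 2 and 3.48 on replicate 1. CRELD2, an ER stress-induced protein with oxidoreductase motifs, read 4.19 on replicate 2 and 4.22 on replicate 1. All 3 were above the olfactory threshold on both arrays but below the stricter one on both.

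A pair of the BiP partners differed between the arrays. DNAJC3, the J protein p58IPK, read 6.75 on replicate 2 and 6.11 on replicate 1, a difference of 0.64. SDF2L1, a partner of DNAJB11, read 3.33 on replicate 2, above the olfactory threshold, and 2.54 on replicate 1, below it. SDF2L1 was the only ER gene not above that threshold on both arrays. The other 8 genes of this role differed by at most 0.44.

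Genes of the lectin cycle, in which monoglucosylated glycoproteins are bound and released until they fold, were all above the stricter threshold. CALR, the calreticulin gene, read 9.80 on replicate 2 and 10.08 on replicate 1. Its membrane-bound relative CANX read 9.48 on replicate 2 and 9.14 on replicate 1. UGGT1, the glucosyltransferase that recognises unfolded glycoproteins, read 6.50 on replicate 2 and 6.65 on replicate 1. Calreticulin and calnexin therefore differed in opposite directions, by less than 0.5 each.

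Among the disulfide enzymes, 4 of 6 exceeded the stricter threshold. P4HB, the classical protein disulfide isomerase, read 9.15 on replicate 2 and 8.88 on replicate 1, and its 2 probe sets gave close means of 8.92 and 9.11. PDIA6 read 7.39 on both arrays and was the only one of the 38 with exactly equal values, as 5.23% of all named genes had. PDIA4 read 6.23 on replicate 2 and 6.42 on replicate 1. DNAJC10, a J protein that reduces disulfides before degradation, belonged to the same range with 6.83 on replicate 2 and 6.78 on replicate 1. PDIA5 read 4.49 on replicate 2 and 4.96 on replicate 1. ERO1B, an oxidase that recharges the isomerases, read 3.53 on replicate 2 and 3.19 on replicate 1. PDIA5 and ERO1B passed the olfactory threshold but not the stricter one.

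ER-associated degradation, with 9 genes, held 3 of the 6 genes with the largest differences between the arrays. These 3 were higher on replicate 2 by more than 0.5, as were 7.95% of all named genes. In a list of other ER-associated degradation genes, 2 of 26 were higher by that much and 3 lower. EDEM1, a mannosidase-like protein that marks misfolded glycoproteins for disposal, read 5.25 on replicate 2 and 4.28 on replicate 1, a 1.96-fold difference. Its relative EDEM2, which makes the initial mannose cut, read 4.61 on replicate 2 and 3.64 on replicate 1. HERPUD1, a membrane protein that assembles degradation complexes, read 5.83 on replicate 2 and 4.95 on replicate 1. EDEM1 and HERPUD1 crossed the stricter threshold on replicate 2 only. EDEM3 followed in the same direction with 5.98 on replicate 2 and 5.52 on replicate 1, and so did SEL1L, the adaptor of the ubiquitin ligase, with 6.04 on replicate 2 and 5.67 on replicate 1.

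The ligase and channel genes of the same pathway differed little between the arrays. SYVN1, the ubiquitin ligase HRD1, read 5.19 on replicate 2 and 5.13 on replicate 1. The retrotranslocation proteins DERL1 (7.16 on replicate 2, 7.09 on replicate 1) and DERL2 (3.31 on replicate 2, 3.20 on replicate 1) differed by at most 0.12. DERL3, their relative known from secretory cells, read 3.68 on replicate 2 and 3.81 on replicate 1. In all, 8 of the 9 degradation genes were higher on replicate 2 by any amount, as were 7755 of all 18404 named genes and 4894 of the 10274 above the olfactory threshold. Their median difference was 0.37, against -0.04 over all named genes and 0 over those above that threshold.

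The translocation and export genes all exceeded the stricter threshold. SEC61A1, the channel subunit, read 6.10 on replicate 2 and 6.09 on replicate 1. SEC61B, its small tail-anchored subunit, read 6.76 on replicate 2 and 6.88 on replicate 1. SSR1, a subunit of the translocon-associated complex, read 8.87 on replicate 2 and 8.66 on replicate 1. All 3 differed by at most 0.21. SEC24D, a cargo adaptor of COPII vesicles, read 5.81 on replicate 2 and 6.29 on replicate 1, the largest difference in the negative direction among the 38 (-0.48).

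Of the 6 regulators, 3 were above the stricter threshold on both arrays, ATF6, XBP1 and, by the average of probe sets that disagree, ATF4. ATF6, the membrane-bound transcription factor that is cleaved under stress, read 7.17 on replicate 2 and 7.07 on replicate 1. XBP1, whose mRNA is spliced by IRE1, read 6.82 on replicate 2 and 6.47 on replicate 1. ERN1, which encodes IRE1, read 4.49 on replicate 2 and 4.17 on replicate 1. EIF2AK3, which encodes the kinase PERK, was lower on replicate 2, with 4.46 there and 4.76 on replicate 1. A gene-level signal does not separate spliced from unspliced XBP1 and says nothing of the activity of the sensors.

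PPP1R15A, which encodes GADD34, the phosphatase subunit that reverses PERK signalling, showed the largest difference of the list. It read 5.64 on replicate 2 and 4.59 on replicate 1, a 2.06-fold difference. ATF4, the transcription factor upstream of it, averaged 5.84 on replicate 2 and 5.85 on replicate 1, but its 2 probe sets lay 4.71 apart. The lower read 3.34 on replicate 2 and 3.64 on replicate 1, and the higher 8.34 on replicate 2 and 8.06 on replicate 1, so they differed between the arrays in opposite directions. The lower was below the stricter threshold, so the place of ATF4 among the 23 genes above it rests on the average. No direction is given for ATF4. Its activity is also controlled largely by translation, which arrays do not measure.

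**Figure D3:**
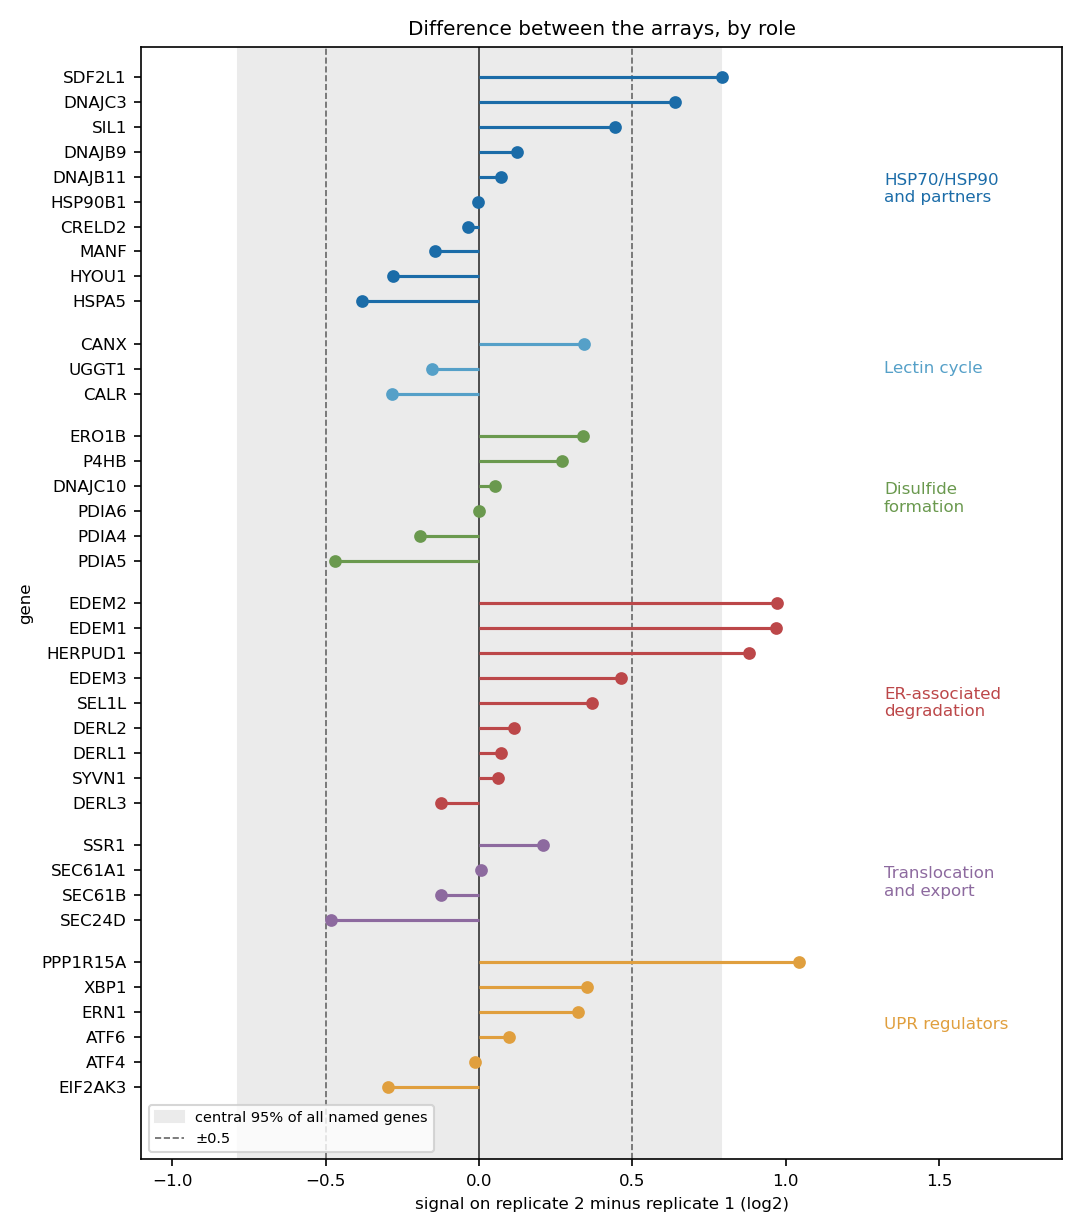
Signal on replicate 2 minus replicate 1 (log2, x axis) for each of the 38 genes, by role. The shaded band holds the central 95% of all named genes and dashed lines mark ±0.5. PPP1R15A, EDEM2, EDEM1, HERPUD1 and SDF2L1 lie outside the band, all to the right, with SDF2L1 at its edge.

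Over the whole list, 32 of the 38 ER genes lay within 0.5 of each other on the arrays and the other 6 were higher on replicate 2. This mark of 0.5 on the log2 scale is 1.41-fold. Higher on replicate 2 by that much were 6 of the 38 genes, PPP1R15A, EDEM2, EDEM1, HERPUD1, SDF2L1 and DNAJC3, as were 7.95% of all named genes. Lower on replicate 2 by that much were 0 of the 38 and 9.58% of all named genes. Among genes above the olfactory threshold on both arrays, 5 of 37 ER genes were higher and 0 lower, against 9.62% higher and 9.01% lower of all 10274 such genes. No test stands behind these counts, because there is 1 array on each side. The median difference was 0.07 over the list and -0.04 over all named genes, and 23 genes were higher and 14 lower on replicate 2 by any amount. Of all named genes 7755 were higher and 9687 lower, and of those above the olfactory threshold 4894 were higher and 5049 lower. The SD of the difference was 0.40 over the list and 0.39 over all named genes. In bulk RNA a difference between cultures in the kinds of cells present and a difference in RNA per cell cannot be told apart.

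Placed among all named genes, PPP1R15A had a higher difference than 99.1% of them. For EDEM1 and EDEM2 that share was 98.8% each, for HERPUD1 98.3%, for SDF2L1 97.6% and for DNAJC3 95.5%. The value for SDF2L1 is uncertain, since its signal on replicate 1 was below the olfactory threshold. By a difference of more than 1, PPP1R15A alone remained, and 1.08% of all named genes were as much higher on replicate 2. At the other end, SEC24D had a higher difference than 10.3% of named genes, PDIA5 11.4% and HSPA5 16.7%. Of the 6 genes, 4 sat where signals differed most between the arrays. The SD of the difference was 0.44 over all named genes with a mean signal from 4 to 5, which holds EDEM1 and EDEM2, and 0.45 from 5 to 6, which holds HERPUD1 and PPP1R15A. In those ranges 11.7% and 12.8% of named genes were higher on replicate 2 by more than 0.5.

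The genes with a promoter motif were found on both sides of the mark. All 8 genes with the exact ERSE stayed within 0.5, between -0.38 (HSPA5) and 0.35 (XBP1), with a median of -0.00. Within 0.5 lay also 15176 of the 18404 named genes and 32 of the 38 ER genes, so the count says little about genes with ERSE. Of the 3 with ERSE-II, HERPUD1 (0.88) and SDF2L1 (0.79) were higher on replicate 2 and HYOU1 (-0.28) was not. SDF2L1 was not above background on replicate 1, which leaves 2 genes with ERSE-II above background on both arrays. Of these 2, HERPUD1 was higher and HYOU1 was not. Among the 24 measured genes with a window and neither motif, 4 were higher by more than 0.5, and the median difference of the 24 was 0.11. Higher by more than 0.5 were also 7.95% of all named genes and 9.62% of those above the olfactory threshold on both arrays. These figures describe 1 pair of arrays and were not tested.

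Most genes listed as known targets of the transcription factors ATF4 and CHOP were higher on replicate 2. The list, which holds none of the 38 ER genes, was chosen with earlier results of these arrays known, including that genes of the amino acid response were higher on replicate 2, so it is not independent evidence of that direction. Of its 39 measured genes, 25 were higher on replicate 2 by more than 0.5 and 0 were lower by that much. Their median difference was 0.63. Of all named genes 7.95% were higher by that much. Among the 36 genes of the list above the olfactory threshold on both arrays, 23 were higher, against 9.62% of all such genes. CTH, an enzyme of cysteine synthesis, read 6.56 on replicate 2 and 4.67 on replicate 1. The secreted stress protein STC2 read 5.58 on replicate 2 and 3.81 on replicate 1. The highest signals of the list were those of the amino acid transporter gene SLC38A2, with 10.05 on replicate 2 and 9.22 on replicate 1, and the asparaginyl-tRNA synthetase gene NARS1, with 9.40 on replicate 2 and 8.77 on replicate 1. Of genes known from ER stress, named after their values were seen, DDIT3 (0.64) and TRIB3 (0.82) were among the 25 and CHAC1 (0.18), CEBPB (0.16) and NUPR1 (0.26) were not. Also among the 25, and named after their values were seen, were DDIT4 (0.81), ATF3 (0.78), GADD45A (0.65) and SESN2 (0.59). ATF3 was below the olfactory threshold on replicate 1. ASNS (7.30 on replicate 2, 7.59 on replicate 1) and PHGDH (5.66 on replicate 2, 5.77 on replicate 1) went the other way. EIF2AK3, the PERK gene, which is not of this list, was lower on replicate 2 (-0.30), and any part of PERK was not tested. The ATF4 element was in 9 of the 34 genes of this list with a window (26.5%), and ERSE or ERSE-II in 0.

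**Figure D4:**
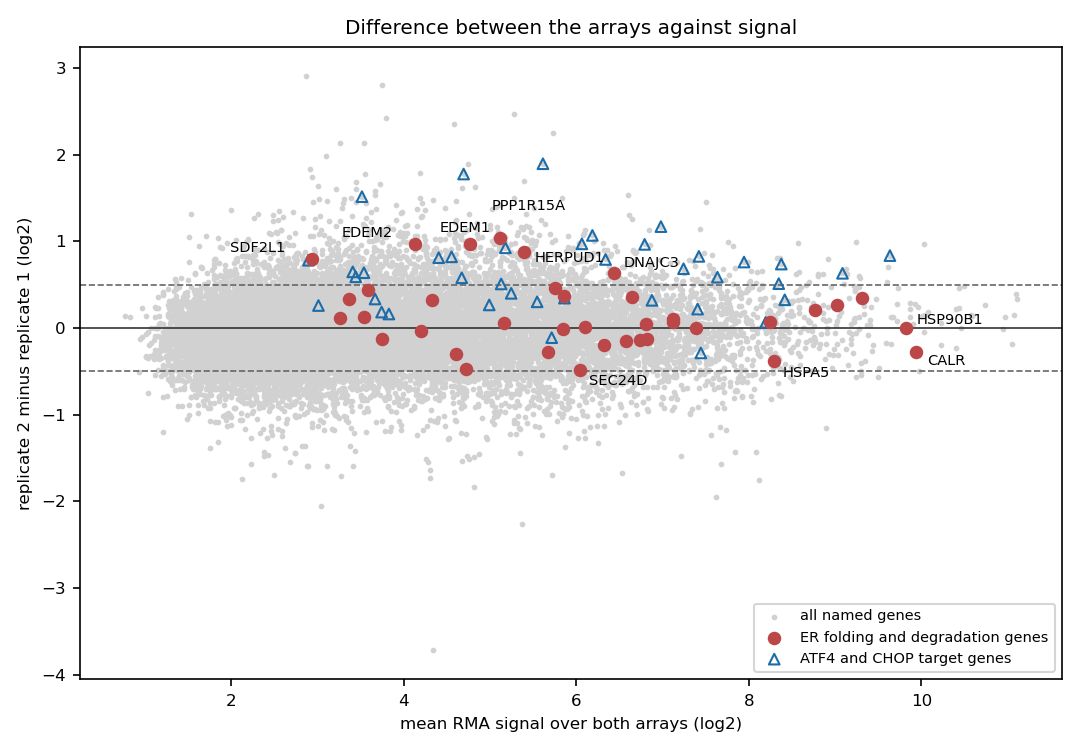
Signal on replicate 2 minus replicate 1 (log2, y axis) against the mean signal over both arrays (log2, x axis) for all named genes (grey), the 38 ER genes (red circles) and the 39 ATF4 and CHOP target genes (open triangles). The red circles spread around 0 with 6 above the upper dashed line at 0.5, while 25 triangles lie above it.

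The other lists of ER genes held genes that differed in either direction. In the other ER-associated degradation genes, 2 of 26 were higher on replicate 2 by more than 0.5, HERPUD2 (0.71) and SELENOS (0.59), and 3 were lower, with a median difference of -0.09. VCP, the ATPase that extracts substrates from the membrane, was among the lower with 5.52 on replicate 2 and 6.16 on replicate 1. In the other regulators, 2 of 21 were higher, the ATF6 protease gene MBTPS2 (0.62) and CREBRF (0.55), and the NF-Y subunit gene NFYA was lower (-1.11). Among other oxidoreductases and foldases 2 of 36 were higher, TMX4 (1.42) and CLGN (0.89), and 3 were lower, with PRDX4 (-0.74), a peroxiredoxin of the ER, foremost.

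The translocation, glycosylation and COPII genes that differed by more than 0.5 went in either direction. Of 20 further translocation genes SEC62 was higher by 0.60 and the signal recognition particle receptor gene SRPRB lower, at -0.60. Of 23 N-glycosylation genes 0 were higher and ALG3, a mannosyltransferase gene, was lower, at -1.18. Of 22 COPII genes TMED9 (0.58) and MCFD2 (0.53) were higher and 0 were lower. Over the 147 measured genes of all these other ER lists together, 9 (6.12%) were higher and 9 (6.12%) lower, and the median difference was -0.06. Of all named genes 7.95% were higher and 9.58% lower, so these counts say little about the ER lists. Among the 130 above the olfactory threshold on both arrays, 9 were higher and 7 lower, against 9.62% and 9.01% of all such genes. Whether these lists and the 38 genes differ beyond the spread of single genes was not tested.

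Genes listed as granule protein genes were mostly lower on replicate 2. Of 11 primary granule protein genes, whose products are made in the ER, 7 were lower on replicate 2 by more than 0.5. By that much 0 were higher, and the median difference was -0.73. Of all named genes 9.58% were lower by that much. Among the 9 genes of this list above the olfactory threshold on both arrays, 6 were lower and 0 higher. Of all named genes above that threshold 9.01% were lower. The lysozyme gene LYZ read 4.24 on replicate 2 and 6.50 on replicate 1. The cathepsin G gene CTSG read 7.24 on replicate 2 and 8.99 on replicate 1. MPO, the myeloperoxidase gene, named after its values were seen, read 7.48 on replicate 2 and 8.21 on replicate 1. Of the chaperones known to assist myeloperoxidase, CALR was at -0.28 and CANX at 0.34. After quantile normalization these differences were -0.49 for CALR and 0.22 for CANX. The part of granule protein genes in the differences among ER genes was not tested.

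**Figure D5:**
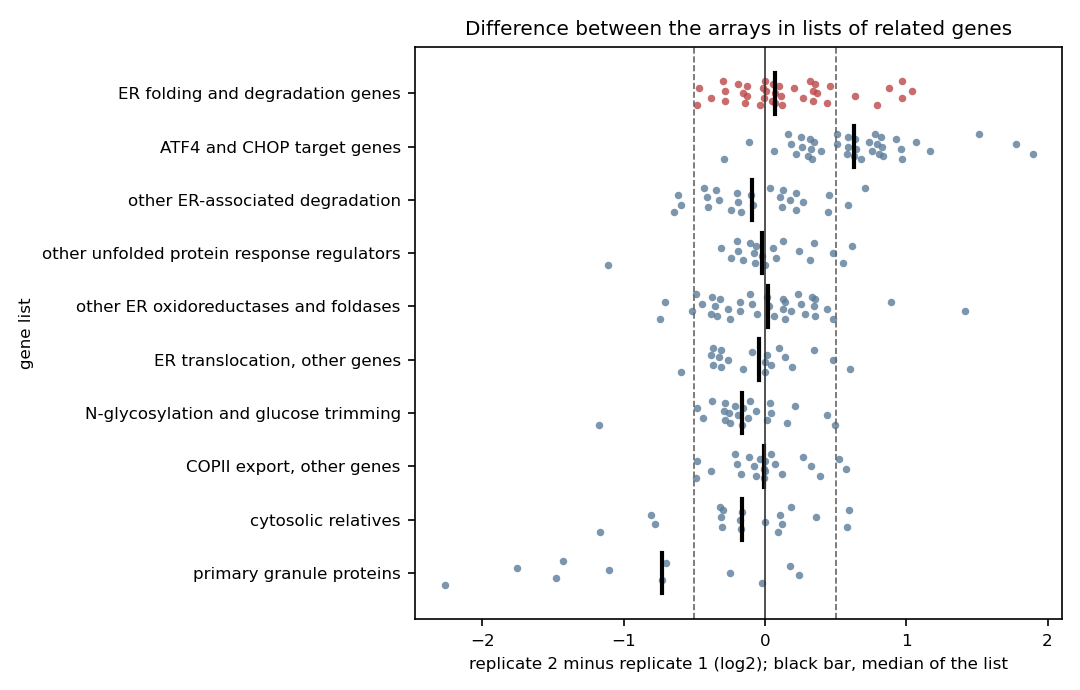
Signal on replicate 2 minus replicate 1 (log2, x axis) for each measured gene of the ER list and of 9 lists of related genes, with black bars at the medians and dashed lines at ±0.5. The medians are 0.07 for the ER list, 0.63 for the ATF4 and CHOP targets and -0.73 for the loose primary granule protein list. The others lie between -0.16 and 0.02.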

How the data were processed

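Total RNA was amplified, biotin-labelled and hybridised to Affymetrix Human Gene 1.0 ST arrays, per the labels' protocols. RMA produced the deposited log2 values of each probe set, per the submitters' processing notes. The log base, the software version and the joint normalization of arrays are not stated there. Base 2 is RMA's own. The highest value, 12.9, would as a natural log stand for 407306, beyond a scanner's range.

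Of 32321 probe sets, 19158 carried 1 gene symbol and were used; 1388 carried several. Symbols were updated through Entrez IDs in RefSeq (19128 of 19158 found), and probe sets of 1 gene were averaged, giving 18404 genes. A gene was above background where its signal on both arrays passed the 95th percentile over olfactory receptor genes. With 1 group of 2 arrays no test was made and no p-value computed; n = 2 limits the precision, and the spread may be technical. The counting steps were tested on simulated data. The genes and lists were chosen with earlier results of these data known. Genes named outside the ER list came from the 2 largest differences each way above background and the 2 highest signals per list. Not every gene that met this rule is named. Names outside it are marked as chosen after their values were seen, or the reason for naming them is given. Alternatives were quantile normalization, loess, the highest probe set per gene, stricter thresholds and each array alone. Scanner files were not used here. PDIA3 was left out because its probe sets carry 2 symbols. Python 3.11.15, numpy 2.4.6, pandas 2.3.3, statsmodels 0.14.6 and matplotlib 3.10.9 were used.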

Additional observations from a re-analysis of the deposited data

Results flagged for a closer look

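A signal appeared in probe sets that the comparisons left out. A pair of probe sets is annotated to both PDIA3, a glycoprotein-specific disulfide isomerase gene, and its pseudogene PDIA3P1. The lower averaged 5.69 ± 0.02, with 5.68 on replicate 2 and 5.71 on replicate 1. The higher averaged 6.75 ± 0.09, with 6.82 on replicate 2 and 6.69 on replicate 1 (SD, n = 2). Both lay above the olfactory and the stricter threshold on both arrays, and which of the genes they measured cannot be told.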

How the results depend on the processing

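No paired analysis was possible because the study has a single group. The 6 genes higher on replicate 2 by more than 0.5 were PPP1R15A, EDEM2, EDEM1, HERPUD1, SDF2L1 and DNAJC3 after quantile normalization, after removal of a loess trend and with the highest probe set per gene as well. With a mark of 1 they numbered 1, and with genes above the olfactory threshold only 5, since SDF2L1 drops out. Quantile normalization made 1 gene, PDIA5, lower by more than 0.5 in place of 0. It moved the median difference of all named genes from -0.04 to -0.00 and that of the ER genes from 0.07 to 0.10; loess gave 0.06. The largest move under quantile normalization was that of CALR, by 0.20. HSP90B1 moved from -0.00 to -0.19 under quantile normalization and -0.11 under loess. Neither changed the sign of a difference other than that of PDIA6, which is equal on both arrays as deposited. The highest probe set per gene gave ATF4 a difference of 0.28 in place of -0.01 and the list a median signal of 6.07. Leaving out each array in turn gave 37 to 38 genes above the olfactory threshold, 23 to 26 above the stricter one and a median signal of 5.97 to 6.01. By the stricter threshold in place of the olfactory one, 23 genes were above background, and at the 99th percentiles 32 and 18. ERSE was in 8 genes also with a gap of 8 to 10 bases, in 11 with ERSE-II and in 7 by the earliest window of each gene, an alternative chosen after seeing the data. The background correction needs scanner files and was not run.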

Other observations

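The cytosolic relatives of the ER chaperones differed between the arrays in either direction. Of 18 measured genes, 2 were higher on replicate 2 by more than 0.5 and 3 lower, with a median difference of -0.16. Of all named genes 7.95% were higher and 9.58% lower, so these counts say little about the cytosolic relatives. After quantile normalization, and also after loess, 1 of the 18 was higher by more than 0.5 and 3 were lower. HSP90AB1, a cytosolic counterpart of HSP90B1, averaged 9.29 ± 0.41 (SD, n = 2) and was higher on replicate 2 by 0.58 as deposited. Its difference under the other scalings is not given here. The difference of HSP90B1 was -0.00 as deposited, -0.19 after quantile normalization and -0.11 after loess. HSPA8, the constitutive cytosolic HSP70 gene, read 10.17 on replicate 2 and 9.99 on replicate 1, and HSPA5 was lower on replicate 2. The cochaperone genes STIP1 (4.76 on replicate 2, 5.93 on replicate 1) and DNAJB1 (4.28 on replicate 2, 5.08 on replicate 1) were lower on replicate 2, and the J protein gene DNAJA2 (7.24 on replicate 2, 6.65 on replicate 1) was higher.

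Among the foldase genes outside the list, 27 of 36 (75.0%) were above the olfactory threshold on both arrays, against 55.8% of all named genes. ALG12, a mannosyltransferase gene, was the only one of 131 other ER genes with a promoter window that held ERSE or ERSE-II, and was named for that.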
